A study of Mus musculus with 6 samples.

Results

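The suppressors of cytokine signalling (SOCS) are a family of 8 genes in the mouse, Socs1 to Socs7 and Cish. The family was chosen with earlier results of these data known, and its features were then taken by gene symbol alone. The array annotation pairs 12 of the 34760 features with exactly 1 of these symbols, namely 3 with Socs6, 2 each with Socs2 and Socs3, and 1 with each of the other 5 genes. No feature that carries several symbols names a member. Of the 12 features 11 passed the filter on low values and were tested, so that all 8 genes had a tested feature. Transcript levels were measured on 6 single-colour arrays of C57Bl/6 mouse embryonic stem cells, all of which stably carried the chimeric receptor GRgp-Y118F. In receptors of this kind the ligand-binding part of the GCSF (granulocyte colony-stimulating factor) receptor drives the signalling part of gp130, the subunit through which leukaemia inhibitory factor (LIF) signals. The 3 groups of 2 arrays were cells labelled control, cells given GCSF for 1 h, and cells given LIF with PD0325901 (LIF/PD) for 1 h. The labels give no agent for the controls beyond that word. PD0325901 inhibits MEK, the kinase that activates ERK, and was used at 1 uM. Treated cells had first been kept without serum for 6 h, and the sources used here do not say whether the controls were too. The labels describe 1 engineered line. Nothing in them says that the 2 arrays of a group stem from separate cultures, so the spread behind each p-value may be technical only.

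SOCS proteins close a negative feedback loop. A cytokine receptor activates JAK kinases, these phosphorylate STAT factors, the STATs enter the nucleus and induce SOCS genes, and the SOCS proteins then dampen the receptor. Each member holds an SH2 domain, which recognises phosphotyrosine on its target, and a SOCS box, which recruits elongins and cullin 5 to a ubiquitin ligase. In embryonic stem cells Socs3 is a well known early target of LIF and STAT3. SOCS3 protein docks on the same phosphotyrosine of gp130 as the phosphatase SHP2, and the Y118F change removes that tyrosine from the chimeric receptor.

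STAT dimers recognise the palindrome TTCNNNGAA, which reads the same on both strands. RefSeq promoter windows of the GRCm38.p6 build, from 250 bases before to 50 bases after the transcript start, were at hand for 4 of the 8 members, Socs1, Socs3, Socs4 and Cish. They are shown because Socs3 is the member whose transcript rose and Cish the one whose GCSF value came next in size, while Socs1, a gene induced by STATs in other cells, is set beside them without a match. Of these windows 2 held the palindrome, those of Socs3 and Cish, against 8.30% of 32851 windows in the table. Of 15 listed genes known to respond to STAT3 that had a window, 4 held it, namely Icam1, Bcl6, Irf1 and Zfp36. Whether a match goes with a response was not tested. The Socs3 match runs from base -154 to base -146 before the start. Cish has 2 matches within its first 20 transcribed bases, from 1 to 9 and from 12 to 20, and 0.457% of all windows hold 2 or more. The windows of Socs1 and Socs4 held no match, and the form with 1 more spacer base was found in 0 of the 4 windows and in 6.95% of all. A match describes letters in a window and is not a measured binding site. The sequences are printed 5′ to 3′ on the strand of the gene, with the palindrome in capitals. The first and last are the 250 bases before the start and the middle one is the stretch from 10 bases before to 20 bases after it.
Socs3, minus strand, chr11:117969367-117969616: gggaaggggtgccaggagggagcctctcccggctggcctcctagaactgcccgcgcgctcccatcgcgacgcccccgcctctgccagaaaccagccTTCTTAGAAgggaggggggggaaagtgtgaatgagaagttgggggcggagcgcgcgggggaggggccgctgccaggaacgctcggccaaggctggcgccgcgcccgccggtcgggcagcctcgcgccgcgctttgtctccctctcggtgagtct
Cish, plus strand, chr9:107296649-107296678: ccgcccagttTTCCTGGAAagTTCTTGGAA
Socs1, minus strand, chr16:10785537-10785786: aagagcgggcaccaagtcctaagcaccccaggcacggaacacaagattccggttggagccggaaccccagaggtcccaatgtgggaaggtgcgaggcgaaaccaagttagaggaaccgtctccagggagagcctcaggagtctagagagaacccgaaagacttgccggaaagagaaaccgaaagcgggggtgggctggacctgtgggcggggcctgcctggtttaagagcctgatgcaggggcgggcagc

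The arrays resembled each other closely, with Pearson correlations over the 16912 tested features of 0.997 to 0.998 within groups and 0.995 to 0.998 between them. All 8 embryonic stem cell markers, among them Pou5f1, Nanog and Sox2, passed the filter. With GCSF 1 of the 8 rose, Tdgf1, a Nodal co-receptor gene (0.30 ± 0.03, limma adjusted p = 0.00190), where 0.804% of all tested features rose. The median of the 8 was 0.07 beside 0.01 over all tested features. Tdgf1 was also 0.17 ± 0.03 higher with GCSF than with LIF/PD (adjusted p = 0.0434). Of 7 fibroblast markers on the array 6 passed the filter, namely Col1a1, Col1a2, Col3a1, Thy1, Dcn and Postn but not Lum. The mean log2 level of the 7 lay between 9.35 and 9.40 in controls and between 9.38 and 9.40 in arrays labelled GCSF. In arrays labelled LIF/PD it lay between 9.34 and 9.37. With GCSF 1 of the 6 tested rose, the collagen gene Col3a1 (0.29 ± 0.05, limma adjusted p = 0.0410), while their median was 0.0026 and the lowest -0.10. Of 5 tested trophoblast markers 1 rose with GCSF, Tfap2c (0.74 ± 0.06, adjusted p = 0.000446), with a median of -0.05 and a lowest value of -0.23. Of 3 tested neuroectoderm markers 1 rose with GCSF, Pax6 (0.54 ± 0.07, adjusted p = 0.00715), with a median of -0.026 and a lowest value of -0.062. With LIF/PD 0 markers of these 4 lists passed in limma, and 2, 0, 1 and 1 had an unadjusted p under 0.05, beside 6.59% of all tested features. With GCSF 4 of 8, 2 of 6, 3 of 5 and 1 of 3 had an unadjusted p under 0.05, beside 12.1%. Between the treatments these counts were 3, 3, 2 and 0, beside 11.8%. The lists for primitive endoderm (4 tested), mesoderm (2 tested) and blood and macrophages (5 tested) held 0 calls in any comparison. The 5 blood and macrophage genes lay from -0.09 to -0.01 with GCSF and from 0.03 to 0.16 with LIF/PD. The part of other cells in the results below was not tested, and in bulk RNA fewer cells of a type and less RNA per cell cannot be told apart. Dusp6, the ERK phosphatase gene that MEK inhibition lowers, read 10.47 and 10.52 in the controls. It read 8.93 and 8.94 on the arrays labelled GCSF and 10.51 and 10.54 on those labelled LIF/PD. Spry4, which behaves in the same way under MEK inhibition, was lower by 1.83 ± 0.06 log2 (SE, n = 2 arrays per group) in the arrays labelled GCSF and lay 0.05 ± 0.06 from control in those labelled LIF/PD. These genes go against the labels of the treated groups, so every direction given here holds for the arrays that carry the label. The median of the array's control features was 6.84 in GCSF replicate 1 and between 6.58 and 6.71 on the other 5 arrays.

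Against control, Socs3 was the only family member to rise under either label, and it rose under both. The comparisons share the 2 control arrays. Socs3 is the classic brake on gp130, since its protein blocks JAK kinases bound to that receptor. Its brighter feature, 10393449, which carries the annotated RefSeq transcript, read 7.77 and 7.73 log2 in the controls, 10.79 and 10.98 with GCSF, and 10.42 and 10.32 with LIF/PD. The groups did not overlap and were ordered control, LIF/PD, GCSF. The rise was 8.78-fold with GCSF (log2 difference 3.13 ± 0.07, 95% interval 7.91-fold to 9.75-fold, limma adjusted p = 2.70e-07) and 6.15-fold with LIF/PD (2.62 ± 0.07, 5.54-fold to 6.83-fold, limma adjusted p = 1.21e-06). By the size of the rise this feature was number 1 of 16912 in both comparisons.

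The direct comparison asks whether the treated groups differed in Socs3. It was 1.43-fold higher in the arrays labelled GCSF than in those labelled LIF/PD (log2 difference 0.51 ± 0.07, 95% interval 1.29-fold to 1.58-fold, limma adjusted p = 0.0123), in both arrays against both. By size 22 features lay above it in this comparison, where it was number 23. The call ended without LIF/PD replicate 1 (adjusted p = 0.0769) or replicate 2 (0.129). It also ended when the variance model had no trend with intensity (0.0548), and with both Socs3 features averaged (0.0624), when the difference was 0.32.

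The other Socs3 feature, 10383010, is annotated with a single GenBank sequence and no RefSeq transcript. It read 6.84 and 6.999 in the controls, 7.41 and 7.45 with GCSF, and 7.36 and 7.26 with LIF/PD. The groups again kept apart in the same order, with much smaller distances. It was 1.43-fold higher with GCSF (0.51 ± 0.08, limma adjusted p = 0.0219) and 1.31-fold higher with LIF/PD (0.39 ± 0.08, adjusted p = 0.329), which did not pass. The GCSF call on this feature ended without control replicate 1 (0.163), without GCSF replicate 1 or 2 (0.109 and 0.0921), without LIF/PD replicate 1 or 2 (0.0536 and 0.0535) with only the 4 arrays compared (0.0545), and with the control feature median as a covariate (0.127).

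**Figure D1:**
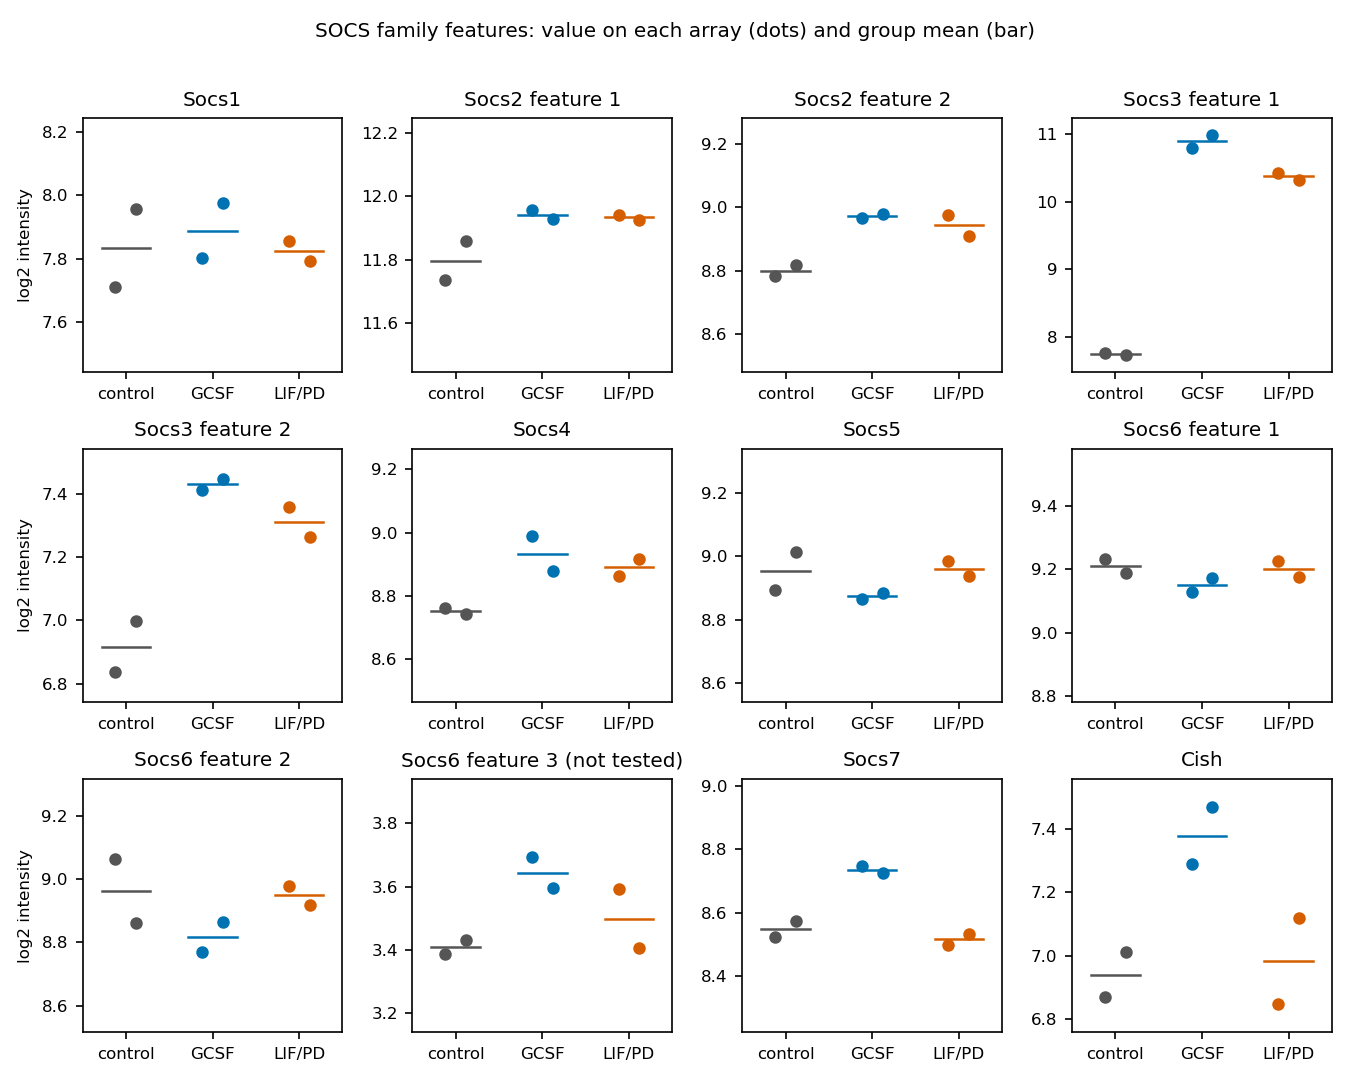
Log2 intensity of the 12 SOCS family features on each array (dots) with the mean of the 2 arrays of a group (bars), in a panel per feature with its own vertical range of at least 0.8 log2. Feature 1 of Socs3 moves from about 7.75 in controls to 10.89 with GCSF and 10.37 with LIF/PD, while no other feature differs by more than 0.51 between group means.

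Cish, the founding family member, is a STAT5 target that dampens growth hormone and erythropoietin receptors. It read 6.87 and 7.01 in the controls, 7.29 and 7.47 with GCSF, and 6.85 and 7.12 with LIF/PD. Both GCSF arrays lay above all 4 others, while control and LIF/PD arrays overlapped. Both GCSF arrays lay above both controls for 23.7% of all tested features, and above both LIF/PD arrays for 19.1%. The difference from control was 0.44 ± 0.11 with GCSF (1.36-fold, 95% interval 1.14-fold to 1.61-fold, limma adjusted p = 0.140) and 0.04 ± 0.11 with LIF/PD (adjusted p = 0.970). Between the treated groups it was 0.40 ± 0.11 (adjusted p = 0.178). None of the 3 passed.

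Socs7, which has been linked to insulin receptor signalling, was also highest with GCSF, with its lowest mean under LIF/PD. Its values were 8.52 and 8.57 in the controls, 8.75 and 8.72 with GCSF, and 8.50 and 8.53 with LIF/PD. Again only the arrays labelled GCSF stood apart, where 23.7% of all tested features lay above control and 19.1% above LIF/PD in this way. The differences were 0.19 ± 0.05 from control (limma adjusted p = 0.178) and 0.22 ± 0.05 from LIF/PD (adjusted p = 0.123), and neither passed.

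Socs2 and Socs4 lay slightly above control under both labels without passing. Socs2 restrains growth hormone signalling, and its 2 features, which share most of their annotated transcripts and are not independent, gave like values. Feature 1 (10394674) read 11.74 and 11.86 in the controls, 11.96 and 11.93 with GCSF, and 11.94 and 11.93 with LIF/PD. Its differences were 0.15 ± 0.04 with GCSF (limma adjusted p = 0.214) and 0.14 ± 0.04 with LIF/PD (adjusted p = 0.668). Feature 2 (10372069) differed by 0.17 ± 0.05 and 0.14 ± 0.05. For Socs4, a member tied to epidermal growth factor receptor turnover, the values were 8.76 and 8.74 in the controls, 8.99 and 8.88 with GCSF, and 8.86 and 8.92 with LIF/PD. The differences were 0.18 ± 0.05 (adjusted p = 0.225) and 0.14 ± 0.05 (adjusted p = 0.733). Treated arrays of both genes lay above every control array and overlapped each other between the treatments. Such a place above both controls was held by 23.7% of all tested features with GCSF and 24% with LIF/PD.

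Socs1, Socs5 and Socs6 lay close to control. Socs1, which like Socs3 inhibits JAK kinases directly and is the main brake on interferon signalling, read 7.71 and 7.96 in the controls, 7.80 and 7.97 with GCSF, and 7.85 and 7.79 with LIF/PD. Its groups overlapped, with differences of 0.05 ± 0.09 with GCSF and -0.01 ± 0.09 with LIF/PD (limma adjusted p = 0.874 and 0.994). The spread between the control arrays of Socs1 (SD 0.173 log2) was the largest of any group of any family feature except LIF/PD for Cish (SD 0.191).

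Socs5, another member tied to the epidermal growth factor receptor, differed by -0.08 ± 0.06 with GCSF and 0.01 ± 0.06 with LIF/PD. Socs6, linked to insulin signalling and receptor kinase turnover, differed by -0.06 ± 0.05 and -0.15 ± 0.07 with GCSF on its 2 tested features, which are annotated with the same sequences, and by -0.01 ± 0.05 and -0.01 ± 0.07 with LIF/PD. Its remaining feature (10460116), at 3.39 to 3.69 on all 6 arrays, fell under the filter limit of 6.70 and was not tested.

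The intervals bound the signal of single features and not the change of the genes. For Socs3 with GCSF, feature 2 had an interval of 1.26-fold to 1.62-fold while feature 1 rose 8.78-fold. The 95% intervals of the tested features of genes other than Socs3 and Cish end between 1.01-fold and 1.24-fold above control with GCSF. With LIF/PD the intervals of all tested features but those of Socs3 end between 1.06-fold and 1.22-fold above control. On the lower side they reach 0.806 of control for feature 2 of Socs6 with GCSF and 0.855 of control for Socs1 with LIF/PD. These intervals are not adjusted for the number of features.

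By count, 2 of 11 tested family features, both of Socs3, were higher with GCSF, where 1.17% of all tested features were called, 0.804% higher and 0.367% lower. With LIF/PD 1 of 11 was called, beside 0.065% of all tested features, 0.0591% higher and 0.00591% lower. Between GCSF and LIF/PD 1 of 11 was called, beside 0.846% of all, 0.443% higher and 0.402% lower. In limma 0 family features fell in any comparison. At an unadjusted p under 0.05 there were 7, 5 and 3 of 11 in either direction, beside 12.1%, 6.59% and 11.8% of all tested features. Both GCSF arrays lay above both controls for 7 of 11 features and below for 2, beside 23.7% and 18.2% of all tested features. For LIF/PD these counts were 5 and 0, beside 24% and 14.4%. Both GCSF arrays lay above both LIF/PD arrays for 4 features and below for 3, beside 19.1% and 22.4%. The median difference over the family features was 0.17 with GCSF and 0.04 with LIF/PD, beside 0.01 and 0.01 over all tested features.

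**Figure D2:**
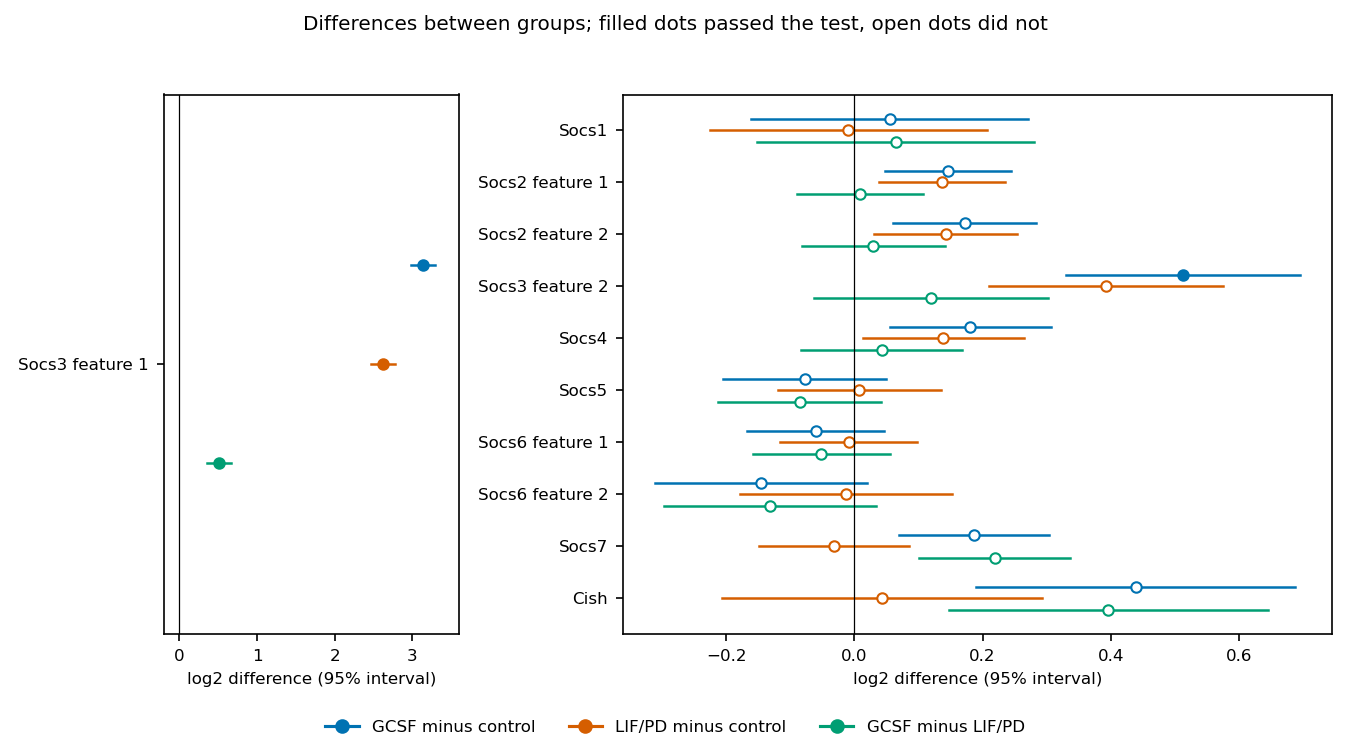
Log2 differences (dots) with 95% intervals (lines) of the 11 tested SOCS family features in the 3 comparisons, from limma. The left panel holds feature 1 of Socs3 on a wider axis, at 3.13, 2.62 and 0.51; in the right panel the only filled dot is feature 2 of Socs3 with GCSF, at 0.51.

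The rest of the pathway was described from lists of genes, 1 feature per gene. Of all tested features 12.1% had an unadjusted p under 0.05 in limma with GCSF and 6.59% with LIF/PD. Between the treatments the share was 11.8%. At an adjusted p under 0.05 the shares called higher were 0.804% with GCSF, 0.0591% with LIF/PD and 0.443% with GCSF against LIF/PD. Receptors, kinases and STATs lie upstream of the SOCS genes. Of 5 tested receptor genes of the gp130 family, Osmr, the oncostatin M receptor, rose by 0.52 ± 0.06 (limma adjusted p = 0.00309) and Lifr, the LIF receptor, by 0.35 ± 0.06 (adjusted p = 0.0234) with GCSF, and 3 did not pass. With LIF/PD 0 of 5 passed and 2 had an unadjusted p under 0.05 in limma, with Osmr at 0.25 ± 0.06 and Lifr at 0.13 ± 0.06. Of 6 tested STAT genes 2 rose with GCSF, Stat3 by 0.61 ± 0.05 (adjusted p = 0.000428) and Stat2, a mediator of interferon signals, by 0.40 ± 0.06 (adjusted p = 0.0127). With LIF/PD Stat3 differed by 0.24 ± 0.05 (adjusted p = 0.258) and 0 of 6 passed, 2 of them at an unadjusted p under 0.05 in limma. Both were also higher with GCSF than with LIF/PD, Stat3 by 0.37 ± 0.05 (adjusted p = 0.0118) and Stat2 by 0.35 ± 0.06 (adjusted p = 0.0319).

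Neither the 3 tested JAK genes nor the 4 tested ligand genes held a call in any comparison by limma, with 0 JAK genes at an unadjusted p under 0.05 and at most 1 ligand gene. Jak2 lay at 0.14 ± 0.08 with GCSF and 0.07 ± 0.08 with LIF/PD. Among the ligands Ctf1, the cardiotrophin gene, lay at -0.24 ± 0.07 with GCSF and Clcf1 at -0.19 ± 0.08 with LIF/PD.

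Among other inhibitors of the pathway calls were few. Of 12 such genes tested 1 rose with GCSF, where 0.804% of all tested features rose. It was Usp18, a brake on the interferon receptor (0.35 ± 0.06, limma adjusted p = 0.0449). That call passed in only 2 of 15 alternatives, the stricter filter and the averaging of features, with an adjusted p of up to 0.278 in the others. It was also 0.41 ± 0.06 higher with GCSF than with LIF/PD (adjusted p = 0.0287). With LIF/PD 0 of 12 passed and 0 had an unadjusted p under 0.05 in limma. Ptpn11, which encodes SHP2, lay at 0.07 ± 0.04 and 0.06 ± 0.04. The ubiquitin ligase parts that SOCS boxes recruit lay near 0, with 0 of 8 called in any comparison by limma and at most 2 at an unadjusted p under 0.05. Elob, an elongin gene, lay at -0.12 ± 0.04 with GCSF and Eloc, its partner, at 0.09 ± 0.04 with LIF/PD. Of 26 other SOCS box genes 15 were tested and 0 passed in any comparison by limma, at most 3 at an unadjusted p under 0.05. The largest differences were those of Asb1 with GCSF (-0.25 ± 0.06) and Asb3 with LIF/PD (0.23 ± 0.07).

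Genes known to respond to STAT3 held most of the pathway's calls. The list was chosen with earlier results of these data known, so its direction is no independent support. Of 17 tested 11 rose and 1 fell with GCSF, where 0.804% of all tested features rose and 0.367% fell. The median of the 17 was 0.52 beside 0.01 over all tested features. Bcl3, a nuclear IkB protein gene, rose by 1.35 ± 0.05, the adhesion receptor gene Icam1 by 0.96 ± 0.07, the pluripotency factor gene Klf4 by 0.92 ± 0.06, Gadd45g by 0.84 ± 0.05 and the kinase gene Pim3 by 0.70 ± 0.05, and Myc fell by 0.77 ± 0.04. With LIF/PD 6 of 17 rose and 0 fell, with a median of 0.31, where 0.0591% of all tested features rose and 0.00591% fell. The 6 were Gbx2 (0.68 ± 0.08), Junb (0.58 ± 0.07), Bcl3 (0.55 ± 0.05), Pim3 (0.51 ± 0.05), Klf5 (0.43 ± 0.04) and Gadd45g (0.43 ± 0.05). Between the treatments 4 of the 17 were higher with GCSF and 1 lower, beside 0.443% and 0.402% of all tested features. Bcl3 was higher with GCSF than with LIF/PD by 0.80 ± 0.05 (limma adjusted p = 0.000153), as Socs3 was. The lower one was Myc, at -0.86, against the direction of Socs3.

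Over all pathway lists 16 of 70 tested genes rose and 1 fell with GCSF, and 6 rose and 0 fell with LIF/PD. Of all tested features 0.804% rose and 0.367% fell with GCSF, and 0.0591% rose and 0.00591% fell with LIF/PD. Of 11 called pathway genes that were followed with each array left out in turn for GCSF, the calls of Lifr, Stat2 and Usp18 were lost without at least 1 array. Each of Lifr and Stat2 passed in 10 of 15 alternatives, with an adjusted p of up to 0.195 and 0.127. For LIF/PD all 6 calls were lost when any 1 of the 2 control or 2 LIF/PD arrays was left out. Between GCSF and LIF/PD 7 of the 70 were higher with GCSF and 1 lower, beside 0.443% and 0.402% of all tested features. Of these 8 calls only those of Bcl3 and Myc passed with any array left out.

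**Figure D3:**
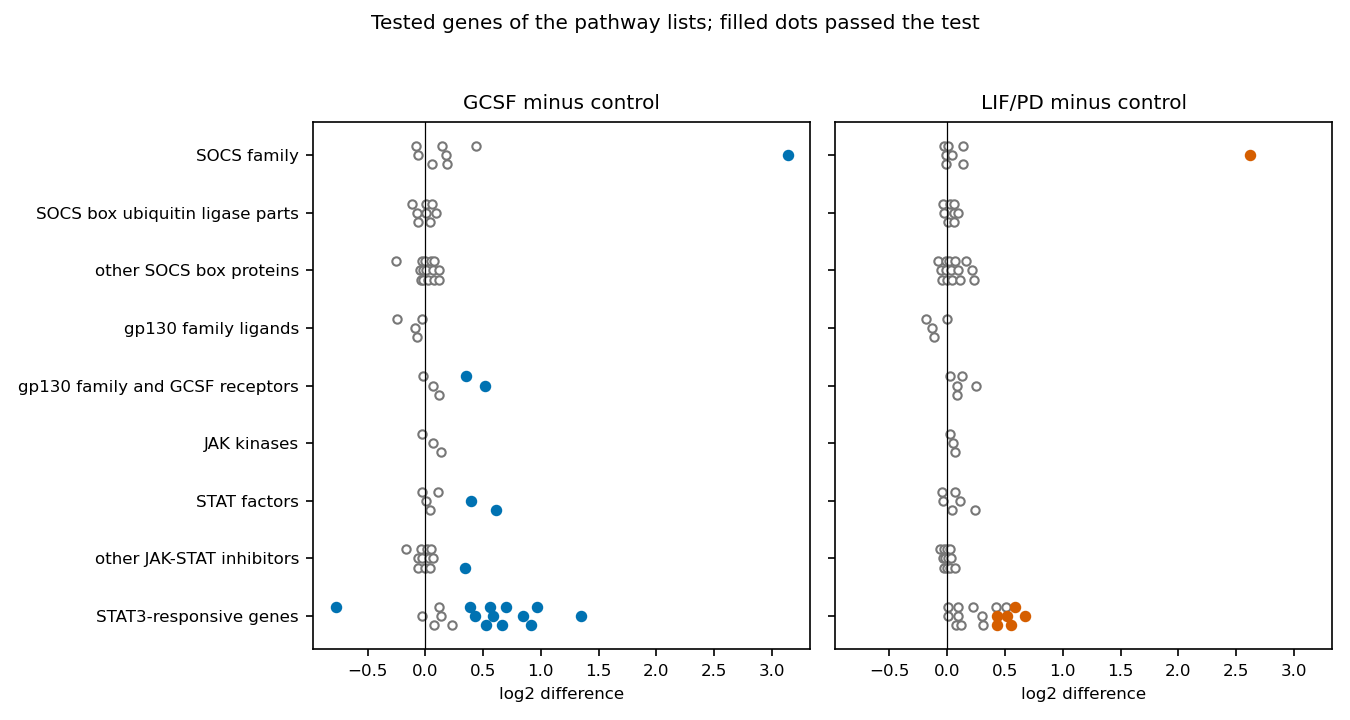
Log2 difference from control of each tested gene of the SOCS family (1 feature per gene) and of 8 pathway lists, with GCSF (left) and LIF/PD (right). Filled dots passed limma's test at an adjusted p under 0.05; Socs3 stands alone at 3.13 and 2.62, and the other filled dots with LIF/PD are the 6 STAT3-responsive genes between 0.43 and 0.68.

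The genes most like Socs3 were sought among 82 tested features with 1 symbol whose group means spanned at least 0.5 log2. Over the 6 arrays 20 of these had a Pearson r above 0.9 with feature 1 of Socs3, and the 5 highest belonged to Klf5 (r = 0.993), Tbx20 (0.991), Dact1 (0.991), Dusp1 (0.988) and Pim3 (0.986). The arrays form 3 groups of 2, so these values describe a shared order of groups and carry no test. Klf5 and Tbx20 encode transcription factors, Dact1 a WNT pathway regulator, Dusp1 a phosphatase of MAP kinases, and Pim3 a kinase. Their sizes were far smaller than that of Socs3. With GCSF they lay 0.52 to 0.70 above control and with LIF/PD 0.40 to 0.52, and the difference between the treatments ran from 0.02 for Dact1 to 0.18 for Pim3. For feature 2 of Socs3 the closest gene was Pax6 (r = 0.982), followed by Dusp1, Pim3, Klf5 and Tbx20.

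**Figure D4:**
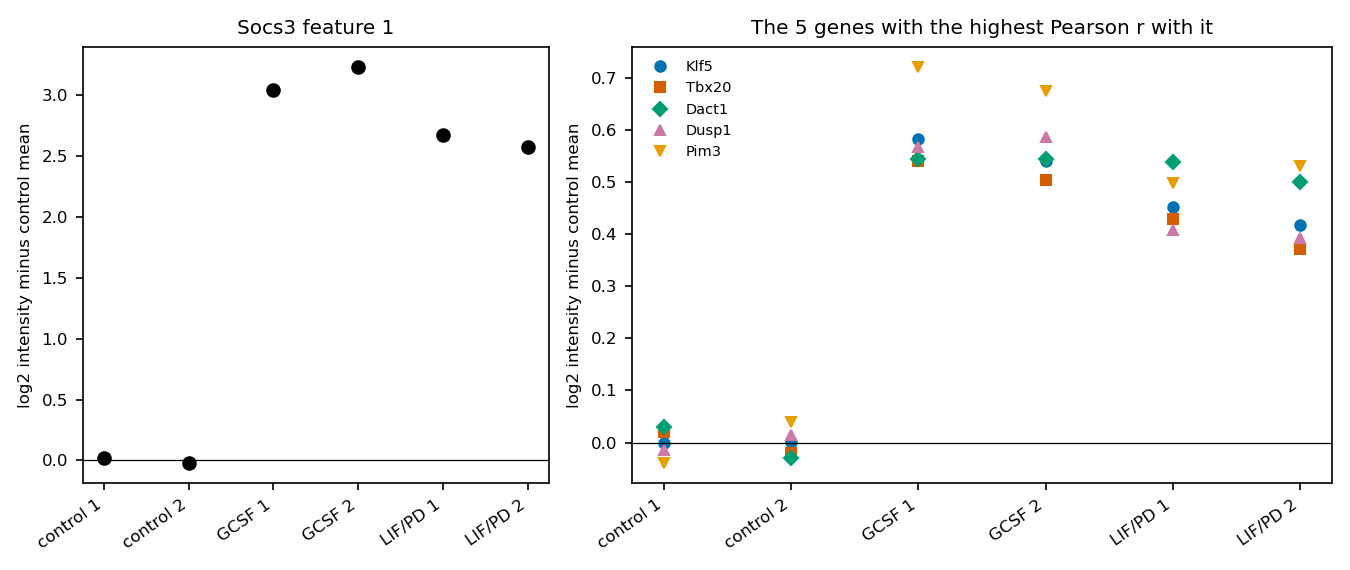
Log2 intensity minus the mean of the control arrays for feature 1 of Socs3 (left) and for the 5 genes with the highest Pearson r with it (right, on a smaller vertical scale), by array. All 6 genes lie near 0 on both control arrays and are highest on the GCSF arrays, except that Dact1 differed by only 0.02 between the treatments.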

How the data were processed

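The deposited table of the authors holds 1 value per feature and array, read as log2 intensity because values lie between 2.29 and 14.50. Log base, background correction and normalization are not given in the sources used here, and the values were used as deposited. The array annotation gave 21640 features 1 symbol and 1321 several. A block of 6573 features below the first annotated identifier was treated as controls and left out. Of the 28187 others, those whose mean reached the 40th percentile (6.70) were tested. limma 3.58.1 in R 4.3.3 fitted 1 mean per group to all 6 arrays with an intensity trend, leaving 3 residual degrees of freedom, or 8.40 after moderation. Tests were two-sided, with p-values adjusted with the Benjamini-Hochberg method over 16912 features and called under 0.05. The fit was tested on simulated data with independent noise for each feature. That setting holds no effect shared by the features of an array, so it cannot show how the fit deals with one. The number of arrays limits the precision.

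All members were named. Of each pathway list the called genes were named, up to 6 by size, or else the 2 largest, and Dusp6 and Spry4 served as label checks. The members and lists were chosen with earlier results of these data known. List genes without a single-symbol feature under the listed symbol were not analysed here; where a gene had several, the brightest by mean was taken. Replicate numbers did not pair the arrays: deviations of same-numbered arrays correlated at 0.0071, 0.084 and 0.099. Alternatives covered the replicate block, filter, normalization, variance model, arrays in the fit, averaging of features and each array left out, and, chosen after seeing the data, the control feature median as a covariate.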

Additional observations from a re-analysis of the deposited data

How the results depend on the processing

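The rise of Socs3 passed under all 15 alternatives with GCSF (1.82 to 3.24) and with LIF/PD (1.51 to 2.67), the lowest values being those with its 2 features averaged. With 2 arrays a group, a left-out array also costs power.

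With the replicate number as a block, 3 family features were called with GCSF, 1 with LIF/PD and 1 between them, the added one being Cish (0.44, adjusted p = 0.0403 in limma), whose adjusted p ran up to 0.545 elsewhere. The block called 195, 9 and 165 of all features in place of 198, 11 and 143, and changed no other call of a family feature.

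The difference in Socs3 between GCSF and LIF/PD was 0.51 without an intensity trend and 0.32 with features averaged, where it did not pass, and 0.42 to 0.61 with an array left out. Family calls with GCSF, 2 as reported, were 1 with the stricter filter, which removed feature 2 of Socs3, with 4 arrays, with averaging and with the covariate, and 1 to 2 with an array left out. Family calls between the treatments were 0 without a trend and with averaging, and 0 to 1 with an array left out. Calls over all features were 125, 1 and 71 without a trend, 83 between the treatments with 4 arrays, and 99 (GCSF) and 26 (between the treatments) with the covariate. With an array left out they were 88 to 164 with GCSF, 1 to 9 with LIF/PD and 31 to 91 between the treatments. Pathway calls with LIF/PD, 6 as reported, were 3 after quantile normalization and with the covariate, 0 without a trend and 0 to 4 with an array left out. Those between the treatments, 8 as reported, were 5 without a trend and with 4 arrays, 2 with the covariate and 2 to 5 with an array left out. The causes were not tested.

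Signs turned only for values that did not pass. With an array left out Socs1 ran from -0.068 to 0.18 with GCSF, -0.13 to 0.11 with LIF/PD and -0.022 to 0.15 between the treatments. With LIF/PD Socs5 ran from -0.053 to 0.069, Socs6 from -0.034 to 0.016 and from -0.11 to 0.087 on its 2 features, Cish from -0.092 to 0.18, Spry4 from -0.028 to 0.12, Jak2 from -0.024 to 0.17 and Stat2 from -0.0078 to 0.10. Between the treatments Socs2 ran from -0.0051 to 0.022 and from -0.0036 to 0.062, Socs4 from -0.013 to 0.10, Jak2 from -0.027 to 0.16 and Tyk2 from -0.12 to 0.024. Quantile normalization gave -0.021 for Socs5 with LIF/PD. With the covariate, feature 1 of Socs2 lay at -0.032, Socs4 at -0.045, Socs6 at 0.0088 and 0.0055, Clcf1 at -0.022 and Tyk2 at 0.0036 between the treatments. Of 468 values of single family features under alternatives 436 kept sign and side of the threshold, 10 lost and 1 gained a call, and 21 turned sign.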
